A study of Homo sapiens with 16 samples.

Results

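The replication-dependent histone genes of 2 T-lineage leukemia cell lines were followed across knock-down of USP7, a deubiquitylating enzyme. Members were taken by symbol: rows whose gene was named HIST1H, HIST2H, HIST3H or HIST4H, or bore a current H1-1 to H1-6, H2AC, H2BC, H3C or H4C name, with pseudogenes left out, and H3-4 entered through its older symbol HIST3H3. The rule gave 36 of the 57820 genes in the count table, with 6 in the linker class H1, 9 in H2A, 10 in H2B, 6 in H3 and 5 in H4. A further 31 annotated genes of these clusters could not be matched to a row by identifier and were not analysed here, so every class total is the total of the matched genes.

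Jurkat and HSB-2 are established human T-cell acute lymphoblastic leukemia (T-ALL) lines, both labelled as TAL1-positive. RNA-seq of total RNA, depleted of ribosomal RNA, was available for 4 groups in each line: wild-type cells, a scrambled control, and cells with USP7 shRNA-4057 or shRNA-4058, hairpins against different exons of USP7 that were delivered by lentivirus. Each of the 8 groups had 2 libraries. The sample labels call the control a scrambled siRNA and the design text a scrambled shRNA, and nothing states whether replicates were separate transductions, so p-values measure only the spread between these libraries. Transduced cells were sorted on GFP or selected with puromycin, and which applied to these libraries, or to the scrambled control, was not stated. Each line is a single model of the disease.

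Histones H2A, H2B, H3 and H4 form the protein core around which DNA is wound, and the H1 linker histones bind the DNA where it enters and leaves. Dividing cells make most of this protein during S phase from clustered genes without introns. Their transcripts are not polyadenylated but end in a conserved stem-loop that is bound by SLBP, processed with the help of the U7 snRNP, and degraded when DNA synthesis stops. A few of the genes also give polyadenylated transcripts outside S phase. Libraries made from total RNA record both kinds.

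The stem-loop was searched on GRCh37 as GG, any 2 bases, CTTTT, any base, A, any 3 bases and CC, on the transcribed strand and within 150 bases after the stop codon. It was found in 36 of 36 members, against 72 of 20047 annotated protein-coding genes (0.359%), a count that includes these members. The sequences are shown because they are the feature that sets these transcripts apart from other mRNA and because the form differed by class. Capitals mark the 16-base stem-loop and lower case the 5 bases on either side.
H1-5 (chr6:27834570-27834595, minus strand): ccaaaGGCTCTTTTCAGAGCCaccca
H2AC11 (chr6:27101289-27101314, plus strand): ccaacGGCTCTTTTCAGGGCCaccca
H2AC20 (chr1:149858936-149858961, plus strand): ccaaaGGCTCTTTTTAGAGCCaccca
H2BC11 (chr6:27100095-27100120, minus strand): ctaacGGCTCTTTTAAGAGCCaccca
H3C14 (chr1:149812259-149812284, minus strand): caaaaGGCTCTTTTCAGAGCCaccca
H4C3 (chr6:26104540-26104565, plus strand): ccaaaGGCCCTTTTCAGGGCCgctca
H4C16 (chr12:14923653-14923678, minus strand): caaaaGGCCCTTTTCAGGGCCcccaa
All 5 H4 members carried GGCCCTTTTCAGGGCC and no other member did. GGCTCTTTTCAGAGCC was found in 21 members and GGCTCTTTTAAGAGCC in 8, both outside H4. H2AC11 and H2AC20 each had a form of their own, shown above.

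The targeted gene was lower with each hairpin: USP7 fell by 1.43 and 0.67 on the log2 scale with shRNA-4057 and shRNA-4058 in Jurkat and by 0.61 and 0.49 in HSB-2. Total counts lay between 76.6 and 235 M per library, and a floor of 3 counts stood for at most 0.0392 CPM (counts scaled to the same library total, with TMM-adjusted library sizes). All 9 T-lineage markers were detected in each library, from 0.786 CPM for CD2 upward, with a summed level of 2191 to 2816 CPM over the Jurkat group means and 2398 to 3549 over the HSB-2 group means. Markers of B, myeloid, erythroid, epithelial and fibroblast cells stayed under 0.35 CPM except CD79A, at 0.514 to 64.3 CPM, and COL1A1, at 4.37 to 11.3 CPM, and their summed level was highest in Jurkat scrambled cells, at 68.8 ± 2.22 CPM against 43.9 ± 0.424 in Jurkat wild-type cells.

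Together the 36 members moved in opposite directions in the scrambled controls of the lines, and cells with either hairpin lay nearer to wild-type than to scrambled cells. In Jurkat their summed level measured 13414 and 13752 CPM in wild-type, 16172 and 16652 in scrambled, 13824 and 13293 in shRNA-4057 and 11900.0 and 12669.6 in shRNA-4058 libraries. The scrambled libraries were the highest and overlapped with no other group, and the shRNA-4057 libraries overlapped with wild-type. In HSB-2 it measured 11906 and 11844 CPM in wild-type, 7621 and 8070.3 in scrambled, 12089 and 11914 in shRNA-4057 and 11252 and 11512 in shRNA-4058 libraries. Here the scrambled libraries were the lowest, apart from every other group. The scrambled mean was 121% of wild-type in Jurkat (log2 ratio 0.27, replicate SD 0.04) and 66.1% in HSB-2 (log2 ratio −0.60, replicate SD 0.06). Against scrambled cells the log2 ratio was −0.28 and −0.42 for shRNA-4057 and shRNA-4058 in Jurkat and 0.61 and 0.54 in HSB-2. Against wild-type cells the same hairpins gave −0.0026 and −0.14 in Jurkat and 0.02 and −0.06 in HSB-2. No test was made of these totals. Between scrambled and wild-type cells the classes moved alike. The log2 ratio of the class totals ran from 0.22 for H1 to 0.33 for H2A in Jurkat. In HSB-2 it ran from −0.68 for H1 to −0.52 for H4. With shRNA-4057 against scrambled, each class fell in Jurkat, from −0.14 for H3 to −0.36 for H4. In HSB-2 each rose, from 0.51 for H4 to 0.69 for H2A. With shRNA-4058 the ranges were −0.33 for H3 to −0.46 for H2A and 0.44 for H4 to 0.62 for H2A. Against wild-type, shRNA-4057 in Jurkat parted the classes, at 0.17 for H3, 0.08 for H2A, −0.0067 for H2B, −0.08 for H4 and −0.09 for H1.

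In Jurkat the pattern depended on the scaling. As a share of all counts the members took 1.42 ± 0.00157% in wild-type (SD, n = 2), 1.54 ± 0.000717% in scrambled, 1.54 ± 0.0328% in shRNA-4057 and 1.40 ± 0.0429% in shRNA-4058 cells, so that scrambled and shRNA-4057 libraries overlapped on that scale. In HSB-2 the shares were 1.14 ± 0.0129%, 0.781 ± 0.0260%, 1.10 ± 0.00156% and 1.01 ± 0.00247% in the same order, with scrambled cells again the lowest.

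**Figure D1:**
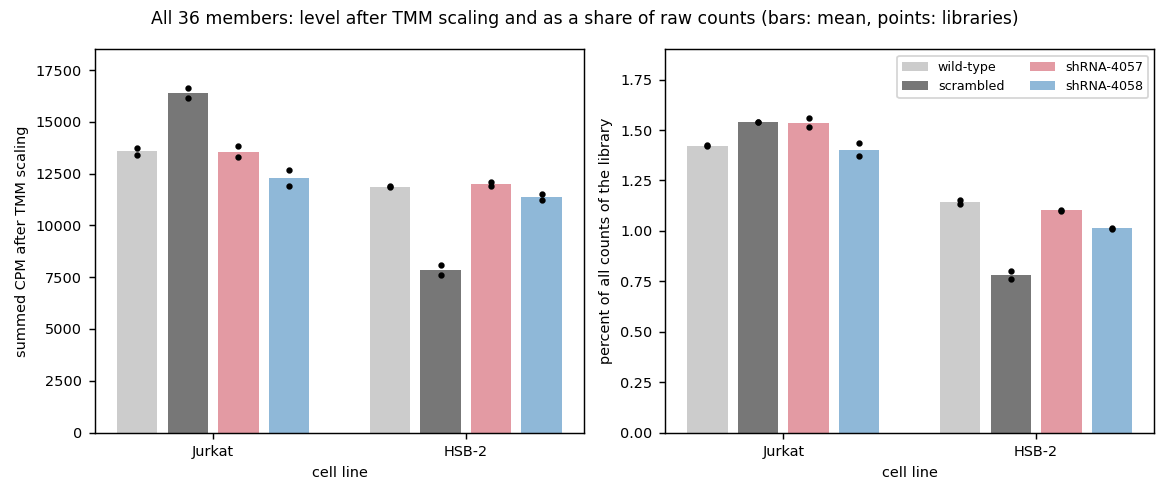
Level of the 36 members together in each group, as summed CPM after TMM scaling (left panel) and as a percent of all counts of the library (right panel). Bars are means and points the 2 libraries of a group, and in HSB-2 the scrambled bar is the lowest in both panels while in Jurkat it is the highest in the left panel and level with the shRNA-4057 bar in the right, with overlapping libraries.

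The lines differed in the make-up of the members. In wild-type cells the H1 genes held 33.3 ± 0.190% of the members' CPM in Jurkat and 21.7 ± 0.202% in HSB-2, and this share moved little between the groups of a line, from 31.2% to 33.4% over the Jurkat libraries and from 19.9% to 21.9% over the HSB-2 libraries. Levels between genes or classes are compared per kb of coding length. On that scale H1 stood at 6851 ± 81.4 CPM per kb in Jurkat wild-type cells and 3892 ± 50.6 in HSB-2 wild-type cells. H2B was the highest class in both, at 9654 ± 219.8 and 8315 ± 221 CPM per kb, while H3 was the lowest in Jurkat, at 3811 ± 87.5, and H1 in HSB-2. These sums run over unequal numbers of matched genes, 10 for H2B and 5 for H4. Reads outside the coding sequence can also raise a class on this scale. Annotated exons span 5002 bases in H2BC26, with 378 coding, and 797 bases in H1-5, with 678 coding. The order of the classes is therefore uncertain.

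**Figure D2:**
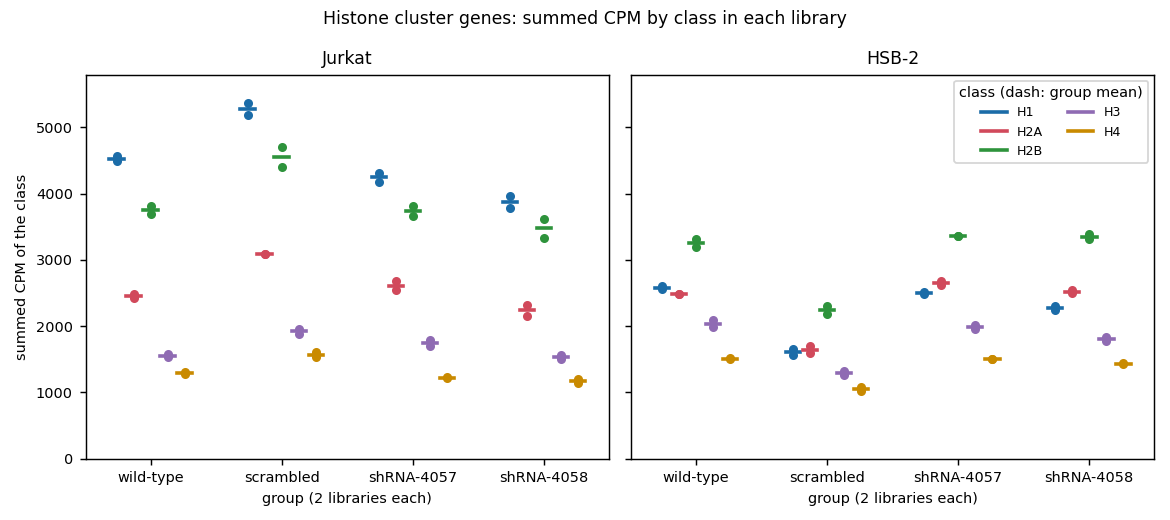
Summed CPM of the H1, H2A, H2B, H3 and H4 members in each library (points) with the mean of each group of 2 (dashes), for Jurkat and HSB-2. The mean of each class is highest in scrambled cells in Jurkat and lowest in scrambled cells in HSB-2.

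Of the 36 members, 33 had enough counts to be tested in the fit of all libraries. H2AC1, H2AC7 and H2BC1 were not, with 0 to 12 counts in any library. A member rose or fell where the adjusted p of edgeR's quasi-likelihood test was under 0.05, with the Benjamini-Hochberg adjustment over all 23063 tested genes, and the error after each log2 fold change is its SE. In Jurkat scrambled against wild-type cells, 28 members rose and 0 fell, beside 25.9% of all tested genes called and 14.8% higher. In HSB-2 scrambled against wild-type cells, 31 fell and 0 rose, beside 17.9% and 16.1% of all tested genes, 34.1% in all. The median log2 fold change of the tested members was 0.24 in Jurkat and −0.63 in HSB-2, beside medians of −0.0042 and 0.00 over all tested genes. There were 28 members that rose in scrambled Jurkat cells and fell in scrambled HSB-2 cells. The share of all tested genes that did both was not counted.

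USP7 shRNA was then compared with the scrambled control, which is shared by both hairpins of a line and by the comparison with wild-type above. With shRNA-4057 in Jurkat 21 members fell and 0 rose (all genes, 50.0% called, 22.7% higher and 27.3% lower). With shRNA-4058, 26 fell and 1 rose (all genes, 46.5% called, 19.7% higher and 26.7% lower). The median log2 fold change of the members was −0.21 and −0.34. In HSB-2, 30 members rose and 1 fell with shRNA-4057 (all genes, 43.6% called, 21.9% higher and 21.7% lower), and 30 rose and 0 fell with shRNA-4058 (all genes, 52.8% called, 26.6% higher and 26.2% lower), with medians of 0.59 and 0.54. With the hairpins pooled as 4 libraries, 17 members fell and 1 rose in Jurkat (all genes, 28.0% called, 12.4% higher and 15.7% lower) and 30 of 31 tested rose in HSB-2 (all genes, 38.1% called, 20.3% higher and 17.8% lower). The 18 pooled calls in Jurkat rested on the scrambled libraries, with 10 calls without scrambled replicate 1 and 7 without scrambled replicate 2. With total counts in place of TMM, shRNA-4057 in Jurkat gave 14 members that rose and 11 that fell. On that scale the median log2 fold change was 0.06 over the members and 0.26 over all tested genes. In these bulk samples fewer cells in S phase and less histone RNA per cell cannot be told apart.

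**Figure D3:**
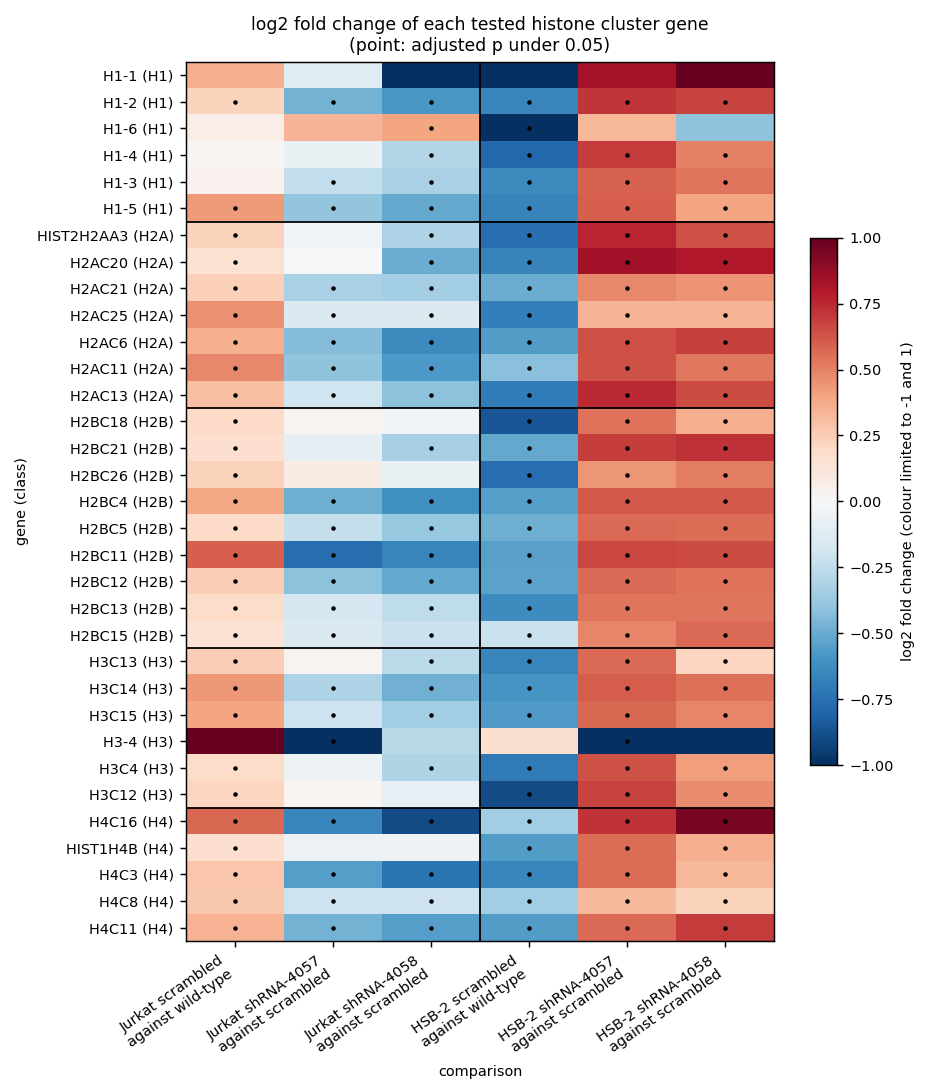
The log2 fold change of the 33 tested members (rows, grouped by class) in 6 comparisons (columns), with red for higher, blue for lower, colours limited to values between −1 and 1, and a point where the adjusted p was under 0.05. In the 3 Jurkat columns on the left the scrambled column is red and the shRNA columns mostly blue, and in the 3 HSB-2 columns on the right this is turned round for all but H1-6 and H3-4.

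Among the linker histones, the 4 abundant genes H1-2, H1-3, H1-4 and H1-5 moved together in HSB-2 and less evenly in Jurkat. H1-5 (ENSG00000184357.3, chr6:27834570-27835366, minus strand) had the highest level per length of all members in wild-type cells, at 2247 ± 20.7 CPM per kb in Jurkat (SD, n = 2) and 1727 ± 23.8 in HSB-2. In Jurkat, H1-5 measured 1514 and 1534 CPM in wild-type, 2030.4 and 2071 in scrambled, 1589 and 1539 in shRNA-4057 and 1401 and 1479.7 in shRNA-4058 libraries. In HSB-2, H1-5 measured 1182 and 1159 CPM in wild-type, 714 and 757 in scrambled, 1125 and 1100.0 in shRNA-4057 and 956 and 979 in shRNA-4058 libraries. Its scrambled libraries were above all others in Jurkat and below all others in HSB-2. The log2 fold change of scrambled against wild-type was 0.43 ± 0.03 (adjusted p = 7.4e-10) in Jurkat and −0.67 ± 0.03 (adjusted p = 1.0e-13) in HSB-2. The hairpins gave −0.39 with shRNA-4057 and −0.51 with shRNA-4058 in Jurkat and 0.60 with shRNA-4057 and 0.40 with shRNA-4058 in HSB-2, each called.

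H1-2 (ENSG00000187837.2, chr6:26055968-26056698, minus strand), which also gives polyadenylated transcripts, went below wild-type in Jurkat. In Jurkat, H1-2 measured 1110.3 and 1119 CPM in wild-type, 1277 and 1324 in scrambled, 957 and 919 in shRNA-4057 and 847 and 891 in shRNA-4058 libraries. All 4 shRNA libraries lay under both wild-type libraries, and against wild-type the log2 fold change was −0.25 ± 0.03 (adjusted p = 4.0e-06) with shRNA-4057 and −0.36 ± 0.03 (adjusted p = 1.8e-08) with shRNA-4058. In HSB-2, H1-2 measured 513 and 503 CPM in wild-type, 312 and 332 in scrambled, 532 and 522 in shRNA-4057 and 504 and 524 in shRNA-4058 libraries. There the scrambled pair was the lowest, and neither hairpin was called against wild-type, at 0.05 and 0.02. H1-4 and H1-3 showed no call between scrambled and wild-type Jurkat cells, with log2 fold changes of 0.02 and 0.05 that turned negative with total counts, at −0.14 and −0.11. In HSB-2 scrambled cells both fell, with log2 fold changes of −0.78 for H1-4 and −0.64 for H1-3.

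The testis linker histone H1-6 did not run with the class. In Jurkat it had 3.28 and 3.70 CPM in wild-type, 3.95 and 3.34 in scrambled, and between 4.59 and 4.81 in the 4 shRNA libraries, all above the other 4. It was the only member that rose with shRNA-4058, by 0.39 ± 0.14 (adjusted p = 0.026), and with shRNA-4057 the change was 0.34 ± 0.14 (adjusted p = 0.051). In HSB-2 it measured 0.951 and 0.925 CPM in wild-type, 0.310 and 0.307 in scrambled, 0.338 and 0.435 in shRNA-4057 and 0.274 and 0.133 in shRNA-4058 libraries. It fell in scrambled cells, at −1.60 ± 0.20 (adjusted p = 5.9e-07) on the log2 scale, and stayed lower than wild-type with the hairpins, at −1.27 ± 0.21 (adjusted p = 5.4e-05) and −2.00 ± 0.22 (adjusted p = 7.9e-08). H1-1 was near the floor, with 0 to 14 counts in any library, and its fold changes were not called in any of the comparisons within a line.

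All 7 tested H2A genes rose with each hairpin in HSB-2 and fell in its scrambled cells. Over all tested genes, 21.9% and 26.6% rose with shRNA-4057 and shRNA-4058 there and 17.9% fell in scrambled cells. H2AC11 (ENSG00000196787.2, chr6:27100822-27101314, plus strand) had the highest level per length of the class in wild-type cells of both lines. In Jurkat, H2AC11 measured 586 and 618 CPM in wild-type, 832 and 846 in scrambled, 656 and 616 in shRNA-4057 and 541 and 587 in shRNA-4058 libraries. In HSB-2, H2AC11 measured 625 and 625 CPM in wild-type, 452 and 483 in scrambled, 738 and 719.8 in shRNA-4057 and 663 and 687 in shRNA-4058 libraries. Scrambled libraries were separate from the rest in each line, the highest in Jurkat and the lowest in HSB-2. Scrambled against wild-type gave 0.48 ± 0.04 (adjusted p = 4.3e-09) in Jurkat and −0.42 ± 0.04 (adjusted p = 1.5e-08) in HSB-2. H2AC6, which also gives polyadenylated transcripts, followed the same course, with hairpin log2 fold changes of −0.43 with shRNA-4057 and −0.64 with shRNA-4058 in Jurkat and 0.65 with shRNA-4057 and 0.68 with shRNA-4058 in HSB-2.

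H2AC20 (ENSG00000184260.4, chr1:149858468-149858961, plus strand) separated the hairpins in Jurkat. In Jurkat, H2AC20 measured 238 and 235 CPM in wild-type, 264 and 261 in scrambled, 269 and 259 in shRNA-4057 and 179 and 194 in shRNA-4058 libraries. Of the hairpins, shRNA-4058 gave libraries below the scrambled pair and shRNA-4057 did not, while the wild-type pair also lay below it. The log2 fold changes against scrambled were 0.01 ± 0.04 (adjusted p = 0.9) with shRNA-4057 and −0.49 ± 0.04 (adjusted p = 4.1e-10) with shRNA-4058. In HSB-2, H2AC20 measured 314 and 311 CPM in wild-type, 189 and 204 in scrambled, 358 and 347 in shRNA-4057 and 341 and 344 in shRNA-4058 libraries. Here all 4 shRNA libraries exceeded both the scrambled and the wild-type libraries. The change against scrambled was 0.84 ± 0.04 (adjusted p = 2.2e-14) with shRNA-4057, the largest of the 31 members with a mean of at least 1 CPM in that comparison. The other 4 tested H2A genes, H2AC13, H2AC21, HIST2H2AA3 and H2AC25, rose with the hairpins in HSB-2 by 0.34 to 0.76. HIST2H2AA3 has a near-identical copy with which its reads can be shared, and it overlaps a gene model on the other strand.

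All 9 tested H2B genes rose with each hairpin in HSB-2, and 6 fell with shRNA-4057 and 7 with shRNA-4058 in Jurkat. Over all tested genes, 21.9% and 26.6% rose with these hairpins in HSB-2, and 27.3% and 26.7% fell in Jurkat. H2BC11 (ENSG00000124635.7, chr6:27093676-27100574, minus strand) was the H2B gene that changed most in Jurkat. In Jurkat, H2BC11 measured 383 and 392 CPM in wild-type, 567 and 608 in scrambled, 349 and 347 in shRNA-4057 and 358 and 385 in shRNA-4058 libraries. The scrambled libraries exceeded the others by a wide margin, and the log2 fold changes were 0.60 ± 0.04 (adjusted p = 3.3e-11) for scrambled against wild-type, −0.76 ± 0.04 (adjusted p = 6.9e-14) for shRNA-4057 and −0.66 ± 0.04 (adjusted p = 1.1e-12) for shRNA-4058. In HSB-2, H2BC11 measured 246 and 246 CPM in wild-type, 164 and 173 in scrambled, 271 and 265 in shRNA-4057 and 266 and 264 in shRNA-4058 libraries. There the shRNA libraries exceeded wild-type, with log2 fold changes of 0.12 and 0.11.

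H2BC18 and H2BC26 were not called with either hairpin in Jurkat. H2BC18 measured 460.0 ± 20.2 CPM in scrambled (SD, n = 2), 470.0 ± 16.2 in shRNA-4057 and 452 ± 24.0 in shRNA-4058 cells, which overlapped. H2BC26 had log2 fold changes of 0.08 with shRNA-4057 and −0.07 with shRNA-4058, neither called. In HSB-2 these same genes stayed under wild-type, at −0.31 and −0.49 for H2BC18 and −0.32 and −0.25 for H2BC26 with shRNA-4057 and shRNA-4058. H2BC15 was the member that fell least in HSB-2 scrambled cells, with a log2 fold change of −0.22, and it exceeded wild-type with both hairpins, at 0.26 and 0.34. H2BC4, H2BC5 and H2BC12, the 3 of the class with the highest mean CPM, not adjusted for length, rose with shRNA-4057 in HSB-2 by 0.61, 0.57 and 0.57 and in Jurkat had −0.49, −0.24 and −0.41, each called lower. The models of H2BC18 and H2BC4 overlap FCGR1A and HFE on the opposite strand, and the strand setting of the counting was not stated.

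Of the 6 H3 genes, 3 fell with shRNA-4057 and 4 with shRNA-4058 in Jurkat, and 5 rose with each in HSB-2. Over all tested genes, 27.3% and 26.7% fell with these hairpins in Jurkat, and 21.9% and 26.6% rose in HSB-2. H3C14 (ENSG00000203811.1, chr1:149812259-149812780, minus strand) and H3C15 (ENSG00000203852.3, chr1:149824170-149824687, plus strand) have coding sequences that are identical over all 411 bases including the stop codon. Both also have the same stem-loop with the same 5 bases on either side, 40 bases after the stop codon. Reads from these stretches could not be told apart, and the separate values of H3C14 and H3C15 are uncertain. In Jurkat, H3C14 measured 419 and 435 CPM in wild-type, 584 and 567 in scrambled, 479.9 and 451 in shRNA-4057 and 401 and 422 in shRNA-4058 libraries. In HSB-2, H3C14 measured 649 and 671 CPM in wild-type, 429 and 449 in scrambled, 678 and 658 in shRNA-4057 and 631 and 657 in shRNA-4058 libraries. Scrambled libraries were again the highest in Jurkat and the lowest in HSB-2, and H3C15 moved in the same direction for each hairpin against scrambled and for scrambled against wild-type cells, by 0.39 and −0.56 in the latter, for Jurkat and HSB-2.

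H3C4 fell with shRNA-4058 in Jurkat (−0.30 ± 0.04, adjusted p = 2.3e-06) and was not called with shRNA-4057 (−0.05 ± 0.04, adjusted p = 0.31). H3C12 was called with neither, at 0.02 and −0.08, yet it fell more than any other H3 gene in HSB-2 scrambled cells (−0.89 ± 0.04, adjusted p = 7.5e-15). The gene model of H3C12 overlaps on the same strand that of H2AC17, a histone gene that could not be matched to a row. H3C13, whose coding sequence is 97.1% identical to that of H3C14, rose with both hairpins in HSB-2, by 0.56 and 0.21. The testis gene H3-4 was near the floor, with 27 and 23 counts in Jurkat scrambled and 5 and 3 in shRNA-4057 libraries, and it fell with shRNA-4057 in Jurkat (−2.83 ± 0.68, adjusted p = 0.0013). In HSB-2 it had 12 and 11 counts in scrambled and 0 and 2 in shRNA-4057 libraries and was the only member that fell there (−2.49 ± 0.97, adjusted p = 0.041).

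The H4 genes encode the same protein, and 4 of the 5 fell with each hairpin in Jurkat while all 5 rose with each in HSB-2. Over all tested genes, 27.3% and 26.7% fell with shRNA-4057 and shRNA-4058 in Jurkat, and 21.9% and 26.6% rose in HSB-2. H4C16 (ENSG00000197837.3, chr12:14920933-14924065, minus strand), which lies alone on chromosome 12, changed most of the H4 genes with each hairpin against scrambled in both lines. In scrambled against wild-type HSB-2 cells H4C16 and H4C8 changed least of the class, each at −0.34. In Jurkat, H4C16 measured 40.7 and 41.0 CPM in wild-type, 58.5 and 63.0 in scrambled, 38.8 and 38.1 in shRNA-4057 and 31.6 and 33.7 in shRNA-4058 libraries. In HSB-2, H4C16 measured 77.6 and 74.2 CPM in wild-type, 57.3 and 62.4 in scrambled, 98.3 and 99.4 in shRNA-4057 and 113 and 119 in shRNA-4058 libraries. In Jurkat the scrambled libraries were the highest and those with shRNA-4058 the lowest. In HSB-2 the shRNA-4058 libraries were the highest, and it passed wild-type there by 0.61 ± 0.05 (adjusted p = 4.4e-10) on the log2 scale, beside 0.14 for H4C11 and negative values for the other 3 H4 genes. Against scrambled cells the changes were −0.90 ± 0.05 (adjusted p = 8.0e-13) with shRNA-4058 in Jurkat and 0.95 ± 0.05 (adjusted p = 5.8e-14) in HSB-2.

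H4C3 (ENSG00000197061.3, chr6:26104161-26104565, plus strand), with the highest level per length of the class in wild-type cells, fell in Jurkat below wild-type. In Jurkat, H4C3 measured 382 and 409 CPM in wild-type, 448 and 512 in scrambled, 326 and 331 in shRNA-4057 and 281 and 298 in shRNA-4058 libraries. All 4 shRNA libraries lay under the wild-type pair, with log2 fold changes of −0.27 ± 0.05 (adjusted p = 6.9e-05) and −0.45 ± 0.05 (adjusted p = 5.1e-08) against wild-type. In HSB-2, H4C3 measured 423 and 426 CPM in wild-type, 262 and 278 in scrambled, 401 and 394 in shRNA-4057 and 342 and 339 in shRNA-4058 libraries. There it was higher than in scrambled cells with shRNA-4057 and shRNA-4058 by 0.56 and 0.33. HIST1H4B stood at the other end of the class in Jurkat, at −0.06 with shRNA-4057 and −0.05 with shRNA-4058, neither called. H4C11 fell with both hairpins in Jurkat, with log2 fold changes of −0.48 with shRNA-4057 and −0.55 with shRNA-4058. H4C8, a gene with polyadenylated transcripts, was the H4 gene that changed least in HSB-2, by 0.32 and 0.23.

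Since scrambled and wild-type cells differed, each hairpin was also compared with wild-type cells, a comparison chosen after seeing the data. With shRNA-4057 in Jurkat 12 members rose and 6 fell (all genes, 36.7% called), with a median log2 fold change of 0.06. With shRNA-4058, 6 rose and 14 fell (all genes, 35.9% called), with a median of −0.10. In HSB-2, 6 rose and 5 fell with shRNA-4057 (all genes, 31.7% called), and 8 rose and 14 fell with shRNA-4058 (all genes, 44.0% called), with medians of 0.0026 and −0.09. Members were called in both directions with each hairpin in each line, and with shRNA-4058 more fell than rose in both lines. The totals of H1 and H4 lay under wild-type throughout, and those of the other classes on both sides of it. With shRNA-4057 and shRNA-4058 the H1 log2 ratios were −0.09 and −0.22 in Jurkat and −0.05 and −0.18 in HSB-2. For H4 they were −0.08 and −0.15 in Jurkat and −0.0063 and −0.08 in HSB-2. These totals were not tested. H2AC25, H2BC18, H2BC26, H3C12 and H1-6, picked after their values were seen, were called higher than wild-type with each hairpin in Jurkat and lower with each in HSB-2. How many of all tested genes met this joint pattern was not counted, so whether it is unusual is not known. H2AC25 gave 0.31 and 0.31 in Jurkat and −0.35 and −0.35 in HSB-2, with shRNA-4057 and shRNA-4058. H3C12 gave 0.23 and 0.13 in Jurkat and −0.22 and −0.42 in HSB-2. H4C16 went the other way with shRNA-4058, at −0.32 in Jurkat and 0.61 in HSB-2, both called. The hairpins of a line share its wild-type libraries in these comparisons.

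**Figure D4:**
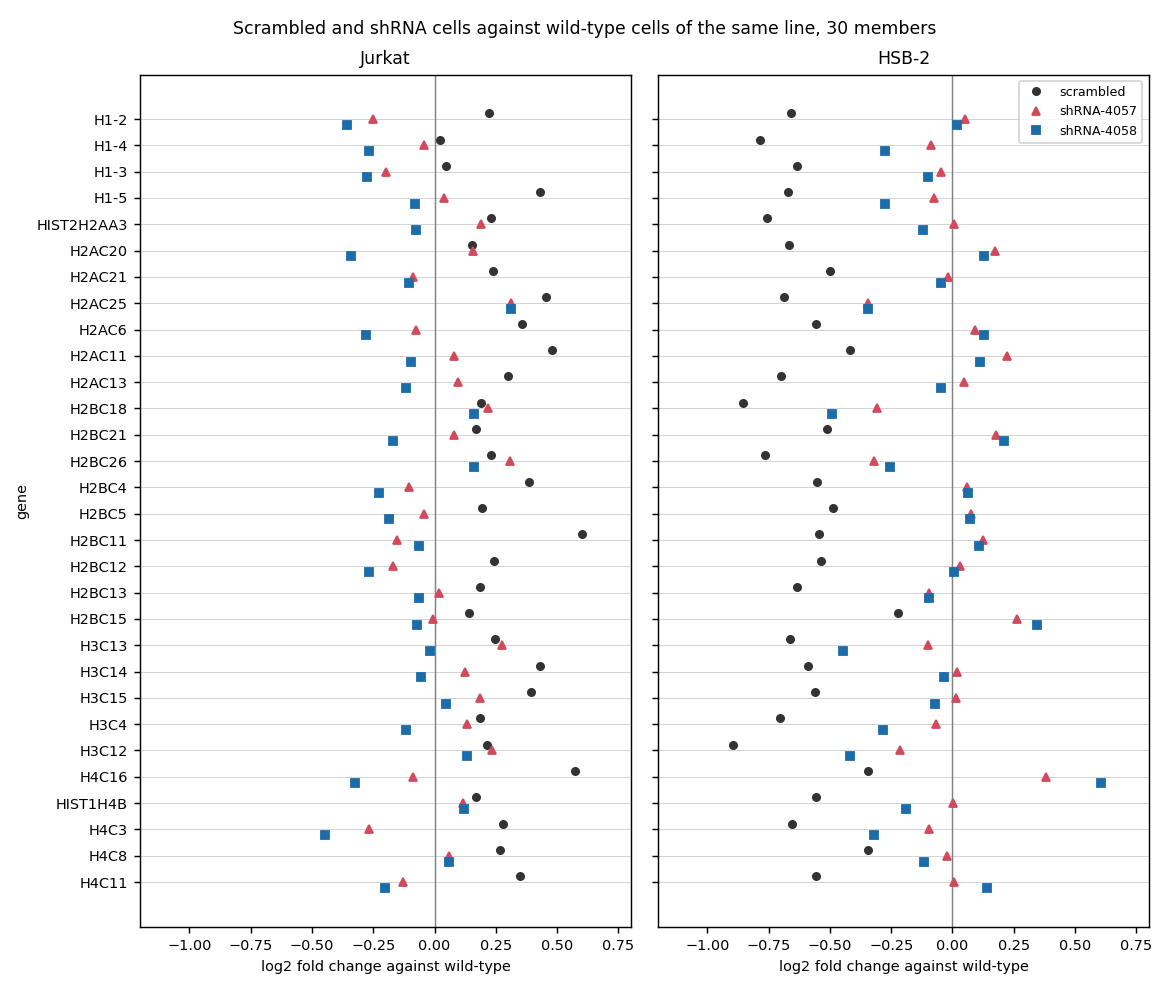
The log2 fold change against wild-type cells of the same line for scrambled (circles), shRNA-4057 (triangles) and shRNA-4058 cells (squares), for the 30 tested members other than the low genes H1-1 and H3-4 and the testis gene H1-6. The circles lie to the right of 0 in Jurkat for all 30 members and to the left of 0 in HSB-2 for all 30, while triangles and squares lie on both sides of 0.

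The difference between the lines was tested itself as an interaction of line and hairpin. For shRNA-4057 the effect was more positive in HSB-2 for 30 of 33 members and more negative for 0 (all genes, 46.7% called, 24.9% higher and 21.8% lower), and for shRNA-4058 these counts were 30 and 1 (all genes, 55.6% called, 29.6% higher). The median difference of log2 fold changes was 0.80 and 0.91. H2BC11 and H4C16 differed the most among members with a mean of at least 1 CPM, by 1.42 ± 0.05 (adjusted p = 6.0e-16) with shRNA-4057 and by 1.85 ± 0.07 (adjusted p = 4.2e-16) with shRNA-4058. H1-6 was the member called in the other direction, at −0.79 ± 0.29 (adjusted p = 0.024). These contrasts contain the scrambled libraries of both lines, which stood apart from wild-type in opposite directions. Between the scrambled cells themselves, 31 members were lower in HSB-2 than in Jurkat and 1 member, H2BC15, was higher (all genes, 71.6% called, 35.5% higher and 36.0% lower). H1-2 differed by −2.01 ± 0.04 (adjusted p = 1.1e-23), while H4C16, at −0.02 ± 0.05 (adjusted p = 0.7), was not called.

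By location, the opposite courses of the scrambled controls were found at each of the 3 larger clusters. At chr6:26017260-26285866, with 13 members, 8 of the 12 tested rose in scrambled Jurkat cells and 11 fell in scrambled HSB-2 cells. At chr6:27093676-27860884 the counts were 9 and 9 of 9, and at chr1:149754245-149859515 8 and 8 of 8. With shRNA-4057 in Jurkat the counts differed more, since 8 of 9 members fell at the second of these and 3 of 8 at the chromosome 1 cluster. The medians were −0.39 and −0.07, a difference that was not tested. Over all tested genes, 27.3% fell with shRNA-4057 in Jurkat, 14.8% rose in scrambled Jurkat cells and 17.9% fell in scrambled HSB-2 cells.

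An H2A and an H2B gene often share a promoter from which they are transcribed in opposite directions, and 6 such pairs were among the members, with 214 to 247 bases between the start sites. The sequence between the genes is shown for the pair with the largest pooled changes in Jurkat, H2BC11 and H2AC11, and for that in HSB-2, H2BC21 and H2AC20, on the plus strand of GRCh37 from the start of the H2B gene, which is read leftward, to that of the H2A gene. Capitals mark the octamer (ATTTGCAT or its reverse complement ATGCAAAT), CCAAT (or ATTGG) and TATA box (TATAAA or TTTATA) motifs.
H2BC11 and H2AC11 (chr6:27100575-27100821): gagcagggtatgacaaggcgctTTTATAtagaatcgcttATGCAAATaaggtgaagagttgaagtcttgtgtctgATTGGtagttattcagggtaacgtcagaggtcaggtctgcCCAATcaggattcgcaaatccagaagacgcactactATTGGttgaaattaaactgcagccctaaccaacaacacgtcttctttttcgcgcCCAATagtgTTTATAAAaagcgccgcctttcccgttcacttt
H2BC21 and H2AC20 (chr1:149858233-149858467): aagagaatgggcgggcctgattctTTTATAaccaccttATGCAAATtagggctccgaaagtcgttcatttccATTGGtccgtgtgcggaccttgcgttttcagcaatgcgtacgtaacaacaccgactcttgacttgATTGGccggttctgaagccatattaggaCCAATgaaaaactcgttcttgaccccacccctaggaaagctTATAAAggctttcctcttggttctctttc
Each sequence held an octamer, with 4 CCAAT motifs in the former and 3 in the latter. The genes of a pair did not always move alike. In Jurkat with shRNA-4057, H2BC11 fell by 0.76 on the log2 scale and H2AC11 by 0.40, while H2BC21 and H2AC20 had −0.09 and 0.01, neither called. In HSB-2 with shRNA-4057, H2BC11 and H2AC11 rose by 0.67 and 0.64 and H2BC21 and H2AC20 by 0.69 and 0.84. The pair H2BC4 and H2AC6 gave −0.49 and −0.43 in Jurkat and 0.61 and 0.65 in HSB-2 with the same hairpin. H2BC26 and H2AC25 gave 0.08 and −0.15 in Jurkat, of which the latter was called.

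Promoter windows from RefSeq (GRCh38.p14, 250 bases before to 50 after each start) were matched by symbol to 34 members, not to H3C12 and H4C3, and searched on both strands. The H1 box AAACACA was found in 6 of 6 H1 members, against 5.757% of the windows of all 27305 genes in the table. CCAAT was found in 30 of the 34 members and in none of the 4 H4 genes with a window, against 35.71% of all. The octamer ATTTGCAT was found in 6 of 9 H2A and 6 of 10 H2B members, against 1.798% of all, and TATAAA in 25 members, against 11.96%. No motif searched contains another, though copies of TATAAA on opposite strands can overlap. The windows of a divergent pair overlap, so a motif between its genes can be counted for both. In that way 1 octamer was counted for both H2AC20 and H2BC21. The same was so for H2AC1 and H2BC1, for H2AC6 and H2BC4, and for H2AC11 and H2BC11. A match is a run of letters and not a bound site. The 9 tested members with the octamer and the 22 without had median log2 fold changes of −0.43 and −0.22 for pooled shRNA against scrambled in Jurkat, and in HSB-2 the medians were 0.62 over 9 and 0.54 over 20, with overlapping ranges.

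Of the members, 7 are known to give polyadenylated transcripts too: H1-2, H2AC6, H2BC5, H2BC11, H2BC12, H2BC21 and H4C8. With shRNA-4058 in Jurkat, 7 of these 7 fell, with a median log2 fold change of −0.51, beside 19 of the 26 other tested members, with a median of −0.31. With shRNA-4058 in HSB-2, 7 of 7 rose, with a median of 0.65, beside 23 of 26, with a median of 0.51. Over all tested genes, 26.7% fell with this hairpin in Jurkat and 26.6% rose in HSB-2. The ranges overlapped in both lines, from 0.23 to 0.73 for the 7 in HSB-2. Gene counts do not separate the 2 kinds of transcript.

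Genes for histone pre-mRNA processing and histone gene transcription moved in both directions with the hairpins. Of 20 such genes, 6 rose and none fell in scrambled Jurkat cells, 6 rose and 9 fell with shRNA-4057 in Jurkat, and 6 rose and 7 fell with it in HSB-2. Beside this list, 25.9% of all tested genes were called in scrambled Jurkat cells, 14.8% higher. The shares of all tested genes with shRNA-4057 were 22.7% higher and 27.3% lower in Jurkat. In HSB-2 they were 21.9% higher and 21.7% lower. SLBP, the stem-loop binding protein, rose in scrambled Jurkat cells (0.47 ± 0.04, adjusted p = 2.0e-09) and fell with shRNA-4057 (−0.57 ± 0.04, adjusted p = 1.4e-11). In scrambled HSB-2 cells its log2 fold change was 0.04 ± 0.04 (adjusted p = 0.51). NPAT, the histone gene coactivator, rose with both hairpins in Jurkat, by 0.28 and 0.39, where most histone genes fell.

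Most replication genes of S phase rose in scrambled Jurkat cells, and in HSB-2 such genes moved in both directions. Of 23 matched genes, 22 rose in scrambled Jurkat cells, 21 fell with shRNA-4057 and 15 with shRNA-4058. Over all tested genes, 14.8% rose in scrambled Jurkat cells, 27.3% fell with shRNA-4057 and 26.7% with shRNA-4058. PCNA, the sliding clamp of DNA polymerase, changed by 0.31, −0.43 and −0.13 in these comparisons. In scrambled HSB-2 cells 4 rose and 3 fell, and with shRNA-4057 10 rose and 8 fell, with a median log2 fold change of 0.04. With shRNA-4058 in HSB-2, 6 rose and 11 fell. Over all tested genes, 16.1% rose and 17.9% fell in scrambled HSB-2 cells. With shRNA-4057 there 21.9% rose and 21.7% fell, and with shRNA-4058 26.6% and 26.2%. Against wild-type, the summed S phase CPM with shRNA-4058 in Jurkat stood at 108% and that of the histone members at 90.4%. The values for shRNA-4057 in Jurkat were 88.5% for the S phase list and 99.8% for the members. As a share of counts the S phase list was higher there with shRNA-4058, at 0.568% on average, than in scrambled cells, at 0.529%. The summed S phase level in HSB-2 was 4199 ± 49.9 CPM in wild-type (SD, n = 2) and 4178 ± 57.7 in scrambled cells, which overlapped, while the histone members stood at 66.1% of wild-type. TK1 and RRM2, of nucleotide synthesis, rose with shRNA-4057 in HSB-2, by 2.86 and 0.82.

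Among the replication-independent histone variants, H2AX, whose transcript can also end in the stem-loop, ran with the members. It rose in scrambled Jurkat cells (0.72 ± 0.06, adjusted p = 1.2e-09), fell in scrambled HSB-2 cells (−0.32 ± 0.06, adjusted p = 7.6e-05) and rose with shRNA-4057 in HSB-2 (0.76 ± 0.06, adjusted p = 6.7e-11). H3-3B, which encodes the replacement histone H3.3, went the other way in Jurkat, at −0.36 in scrambled and 0.75 with shRNA-4057. Of the 12 variants tested, 8 rose and none fell with shRNA-4057 in HSB-2, while 5 fell and 1 rose with it in Jurkat. Of 15 histone chaperones, 10 fell and 2 rose with shRNA-4057 in Jurkat and 3 fell and 3 rose in HSB-2. Beside both lists, 50.0% of all tested genes were called with shRNA-4057 in Jurkat, 22.7% higher and 27.3% lower. In HSB-2 43.6% were called, 21.9% higher and 21.7% lower. ASF1B, the S phase chaperone of H3 and H4, rose in scrambled Jurkat cells (0.41) and with shRNA-4057 in HSB-2 (0.35).

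Short noncoding RNAs without a poly(A) tail also changed between these libraries. Of 10 listed, 6 were matched and 4 had enough counts to be tested, of which 3 rose in scrambled Jurkat cells, 4 fell with each hairpin in Jurkat, 4 fell in scrambled HSB-2 cells and 3 rose with each hairpin there. SNORD3A was not called in scrambled Jurkat cells (−0.03) or with either hairpin in HSB-2. The summed level, most of which was RN7SL2 and RN7SK, was 46669 ± 5673 CPM in wild-type, 73695 ± 10893 in scrambled, 32354 ± 964 in shRNA-4057 and 29183 ± 3364 in shRNA-4058 Jurkat cells (SD, n = 2). In HSB-2 it was 37978 ± 434, 31806 ± 1794, 43534 ± 2286 and 46878 ± 1819 CPM in the same order. RN7SK, a regulator of transcription elongation, and TERC, the telomerase RNA, fell in scrambled HSB-2 cells by 0.16 and 0.73 on the log2 scale and rose with shRNA-4057 by 0.24 and 0.91. Messages with a poly(A) tail moved too: of the 9 listed T-lineage genes, which encode surface receptors and signalling proteins of T cells and the transcription factor TAL1, 8 fell in scrambled HSB-2 cells and 9 rose with each hairpin. In Jurkat 7 fell with each hairpin, though not the same 7. CD5 rose with shRNA-4057 (0.13) and fell with shRNA-4058 (−0.36), and CD3G fell with the former (−0.31) and was not called with the latter (0.07). Over all tested genes, 17.9% fell in scrambled HSB-2 cells, and 21.9% and 26.6% rose with shRNA-4057 and shRNA-4058 there. In Jurkat 14.8% rose in scrambled cells, and 27.3% and 26.7% fell with these hairpins. The part of the short noncoding or the T-lineage list in the histone result was not tested.

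**Figure D5:**
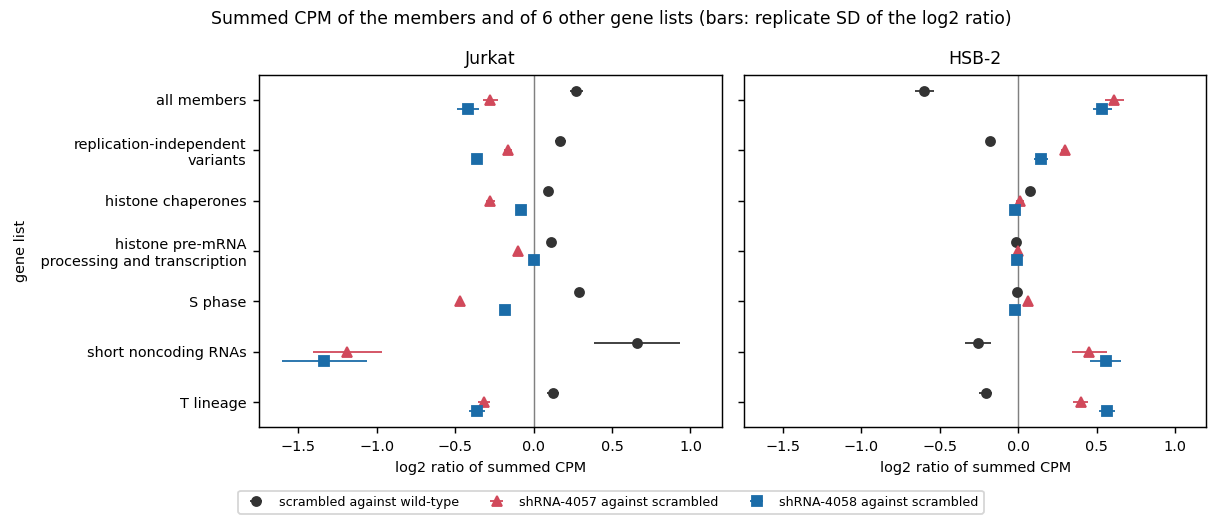
The log2 ratio of summed CPM for the 36 members and 6 other gene lists in 3 comparisons per line, with bars for the replicate SD of the ratio. In HSB-2 the members, the short noncoding RNAs and the T-lineage genes are displaced furthest from 0, the variants less, and the S phase, chaperone and processing lists lie near it. In Jurkat the S phase and variant lists are displaced as well, and the chaperone list with shRNA-4057.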

How the data were processed

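Members and gene lists were chosen with earlier results of these data known. Total RNA of 16 libraries, depleted of ribosomal RNA, was sequenced by the authors as stranded libraries, and the deposited table holds raw gene counts on GRCh37-lite (hg19). The submitters' processing notes name CASAVA, STAR, BWA and HTSeq 0.6.1p1. The strand setting of the counting and the annotation release are not given in the sources used here. Deposited fold or p-value columns were not present in the table.

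Rows were named by Ensembl identifier, which matched a symbol for 55538 of 57820. Of the annotated pseudogenes, 19 rows were left out. Positions came from GENCODE models on GRCh37 and promoter windows from RefSeq. Counts were tested with edgeR 4.0.16 in R 4.3.3 (filterByExpr, TMM factors of 0.882 to 1.15, quasi-likelihood F-test, Benjamini-Hochberg over all tested genes, adjusted p under 0.05). The SE was taken as the log2 fold change divided by the root of F. Each hairpin, the wild-type comparisons and the interactions came from 1 model of the 8 groups, fitted to all libraries and 23063 genes, and the pooled hairpins from a fit of each line. The tests were also run on simulated counts with a single dispersion for all genes, unlike these data, and nothing is concluded from that run. DESeq2 1.42.0, other scalings and filters, left-out libraries and a replicate block were alternatives. CPM values used TMM-scaled library sizes, and depth was 76.6 to 235 M counts, so counting error on abundant members was small beside the spread of replicates. Floors cover counting error only. Within each pair of replicates the counts differed by 5.41 to 20.2 in chi-square per degree of freedom, which is beyond sampling noise. Replicate numbers did not pair the samples in one way, with correlations of −0.32 to 0.36 over 28 pairs of groups. The scrambled and shRNA-4058 groups of both lines correlated positively with each other, from 0.12 to 0.36. Both shRNA-4057 groups correlated negatively with each of these, so replicates shared some deviation whose source was not tested.

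Genes named were the 3 of each class with the highest mean CPM, the 3 with the largest pooled change in each direction among those called with both hairpins, all H1 genes, the genes known to give polyadenylated transcripts, the testis genes and near-identical copies. H2AC21, H2AC25, H2BC13, H2BC15, H2BC18, H2BC26 and H3C12 were named after their values were seen.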

Additional observations from a re-analysis of the deposited data

Results flagged for a closer look

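The effect of each hairpin differed between the lines by the interaction test of edgeR, which contains the scrambled libraries of both lines. The test called 30 members for shRNA-4057 and 31 for shRNA-4058, beside 46.7% and 55.6% of all tested genes. For shRNA-4057 the HSB-2 effect exceeded the Jurkat effect by 0.99 on the log2 scale for H1-5, 1.04 for H2AC11, 1.10 for H2BC4, 0.91 for H3C14 and 1.11 for H4C3, the member of each class with the highest mean CPM, not adjusted for length. For shRNA-4058 the differences were 0.91 for H1-5, 1.10 for H2AC11, 1.23 for H2BC4, 1.04 for H3C14 and 1.06 for H4C3.

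A single library stood apart for H2BC1, a testis H2B gene near the floor. Among the 4 shRNA libraries of a line its gap to the nearest library, divided by the range (Dixon's ratio), was 0.881 in Jurkat, where the counts were 8, 8, 2 and 9, and 1 in HSB-2, where they were 0, 1, 0 and 0. Of 68 sets of 4 libraries tested, these 2 passed Dixon's critical value, and chance alone gives about 1 in 20.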

How the results depend on the processing

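With DESeq2 the counts of members called stayed within 1.5 times of the edgeR counts in all 11 comparisons. The scrambled control and the scaling decided most of what changed. With wild-type cells as the control, 4 members were called for pooled shRNA in Jurkat and 9 in HSB-2, the latter with more lower than higher. For single hairpins against wild-type the counts were 18 for shRNA-4057 in Jurkat and 11 and 22 for shRNA-4057 and shRNA-4058 in HSB-2, with the prevailing direction turned for the first and the last. With total counts in place of TMM, shRNA-4057 in Jurkat called 25 members, more of them higher than lower, and scrambled against wild-type in Jurkat called 15. Over all genes tested the median log2 fold change was then 0.26 for shRNA-4057 in Jurkat and −0.13 in HSB-2, so the members' medians of 0.06 and 0.47 are read against those. Without the 10 most abundant genes in the library size, pooled shRNA in Jurkat called 11, and with the hairpins as separate groups that were averaged it called 28. Leaving out 1 library gave 7 to 16 calls there, and 26 to 30 for pooled shRNA in HSB-2.

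The log2 ratio of the summed members moved from −0.28 to −0.0025 with total counts, −0.11 without the 10 most abundant genes and −0.0026 against wild-type for shRNA-4057 in Jurkat, and from −0.42 to −0.13, −0.26 and −0.14 for shRNA-4058. In HSB-2 it moved from 0.61 to 0.50, 0.52 and 0.0153 for shRNA-4057 and from 0.54 to 0.38, 0.41 and −0.0611 for shRNA-4058, in the same order. For scrambled against wild-type in Jurkat it was 0.11 with total counts and 0.19 without the 10 most abundant genes.

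Single members changed sign in the following cases. For pooled shRNA in Jurkat, total counts gave 0.104 for H1-4, 0.0558 for H2AC20, 0.0726 for H2BC21, 0.167 for H3C13, 0.000924 for H3C15, 0.106 for H3C4, 0.0686 for H4C8, 0.226 for HIST1H4B and 0.109 for HIST2H2AA3. Without the 10 most abundant genes H3C13 had 0.0519 and HIST1H4B 0.109, and HIST1H4B had 0.00602 with a minimum of 10 counts in every library. For scrambled against wild-type in Jurkat, total counts gave −0.113 for H1-3, −0.137 for H1-4, −0.0913 for H1-6 and −0.00803 for H2AC20, and without the 10 most abundant genes H1-3 had −0.0380, H1-4 −0.0612 and H1-6 −0.0172. Leaving out 1 library gave ranges that crossed 0. For pooled shRNA in Jurkat they were −1.71 to 1.93 for H1-1 and −0.0704 to 0.00648 for HIST1H4B, whose sign turned without scrambled replicate 2. For pooled shRNA in HSB-2 the range was −0.256 to 0.167 for H1-6. For scrambled against wild-type in Jurkat they were −2.41 to 1.25 for H1-1, −0.0320 to 0.0680 for H1-4 and −0.0596 to 0.175 for H1-6, and in HSB-2 −0.0520 to 0.587 for H3-4. The cause was not tested in any case.

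With the replicate number as a block the counts were 14 for pooled shRNA in Jurkat and 30 in HSB-2, 21 and 27 for the single hairpins in Jurkat, 31 and 30 in HSB-2, 28 and 31 for scrambled against wild-type in Jurkat and HSB-2, 30 and 31 for the interactions and 32 between scrambled cells of the lines. Pairing the numbers crosswise, chosen after seeing the data, gave 15, 29, 26, 29, 31, 30, 28, 31, 30, 31 and 32 in that order. Nothing states that the replicate numbers pair samples across groups.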
